A study of Mus musculus with 4 samples.

Results

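The genes described here are 10 genes of natural killer (NK) cells and cytotoxic lymphocytes, chosen by name: *Gzma*, *Gzmb*, *Prf1*, *Nkg7*, *Klrb1c*, *Klrd1*, *Klrk1*, *Ncr1*, *Eomes* and *Tbx21*. The choice was made with earlier results of these data known. Each name was found once among the 22483 named loci of the deposited table. All but *Tbx21*, 9 in number, had a locus of their own. *Tbx21* shares its row with the neighbouring gene *Tbkbp1*, so its own level could not be read.

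Poly(A) RNA was sequenced from whole mammary gland of 2 *miR-21*+/+ and 2 *miR-21*-/- mice. All 4 mice were virgin, 2 months old and of the mixed background 129SV::FVB/N::C57BL/6. The *miR-21*-/- mice lack the microRNA in every cell, so lymphocytes and gland were both without it. The unit is FPKM, a fragment count scaled to exon length and to the mapped fragments of the library. Both mice of a genotype were merged by the authors into 1 FPKM value per row. Because the merged values show no spread between mice, they allow no test here, and every difference below is a ratio of 2 values with no replicate check. The authors' own test columns in the table were not used. Library depth is unknown. The locus that merges *Mir21* with its host gene *Vmp1* stood at 42.5 FPKM in *miR-21*+/+ and 68.2 FPKM in *miR-21*-/- glands, but this is the host transcript and does not check the genotypes.

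NK cells and CD8 T cells kill target cells by releasing granules. Perforin opens the target membrane and granzymes, which are serine proteases, enter and start cell death. NK cells decide whether to kill by adding up signals from activating and inhibitory receptors, many of them encoded side by side in the NK gene complex on mouse chromosome 6. The T-box factors Eomes and T-bet direct the development of both cell types. In the mammary gland such lymphocytes lie in the epithelium and stroma, and a mammary lymph node lies within the fat pad.

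The mature miR-21, removed in the *miR-21*-/- mice, is shown with its seed, bases 2 to 8, in capitals. The RefSeq entry lies at chr11:86584120-86584141 on the minus strand (GRCm38.p6).
miR-21: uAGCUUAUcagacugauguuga
A match to this seed reads ATAAGCT in a transcript. All 10 genes had an annotated 3′ UTR in GENCODE (mm9), from 67 bases in *Gzma* to 2463 bases in *Klrk1*, and *Klrk1* was the only one of them with a match. It held 2, at chr6:129561397-129561403 and chr6:129560859-129560865, both on the minus strand and inside the 3′ UTR. The matches are in capitals.
Klrk1 first site: aatataatcccaaATAAGCTgag
Klrk1 second site: tcccccaaaggctATAAGCTtat
Of 14598 loci with a mean of at least 0.1 FPKM, a name of their own and an annotated 3′ UTR, 7.02% held a match. *Klrk1*, the gene with the sites, stood at 0.963 FPKM in *miR-21*+/+ and 0.689 FPKM in *miR-21*-/- glands, a log2 ratio of −0.48. A seed match is a description of the sequence and does not show that the transcript is a target.

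NK and cytotoxic genes were weakly expressed in both genotypes. The 9 genes with a locus of their own lay between 0.284 and 3.50 FPKM in *miR-21*+/+ glands and between 0.168 and 1.51 FPKM in *miR-21*-/- glands, and none exceeded 5 FPKM in either. The authors took a differing gene as reliable only above 5 FPKM in either genotype, so all 9 lie below that limit. On the FPKM scale 7 of the 9 were lower in *miR-21*-/- glands and 2, the granzymes *Gzma* and *Gzmb*, were higher, although *Gzma* changed sign when both columns were scaled to equal sums over all loci. Among the 3684 named loci within the range of these levels, 52.3% were lower. The scaling to equal sums counts rows without a gene name too and moves every log2 ratio by −0.63, and the median of all loci on it is −0.66. Relative to the pan-leukocyte gene *Ptprc*, a scale chosen after seeing the data, only 3 of the 9 were lower and 6 were higher. This scale adds 1.04 to every log2 ratio, and the median of all loci on it is 1.01.

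Counting all 10, *Prf1*, *Nkg7* and *Klrd1* were at least 2-fold lower in *miR-21*-/- glands (3 of 10) and *Gzmb* was at least 2-fold higher (1 of 10). Among the 16170 named loci with a mean of at least 0.1 FPKM and a value above 0 in both genotypes, 3.65% were at least 2-fold lower and 3.18% at least 2-fold higher. Ratios scatter more at low levels. Among the 3684 loci whose mean lay within the range of the 9 genes, 0.226 to 2.44 FPKM, these shares were 7.82% and 6.92%. Against these shares, 30% of the 10 genes were at least 2-fold lower and 10% at least 2-fold higher, the latter being a single gene. The 10 include the *Tbx21* row, whose mean of 10.6 FPKM lies above this range. Because the genes were chosen with earlier results known, the difference from these shares was not tested. The median log2 ratio of the 10 genes was −0.62, and −0.76 without the *Tbx21* locus, against −0.03 over the 16170 loci.

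**Figure D1:**
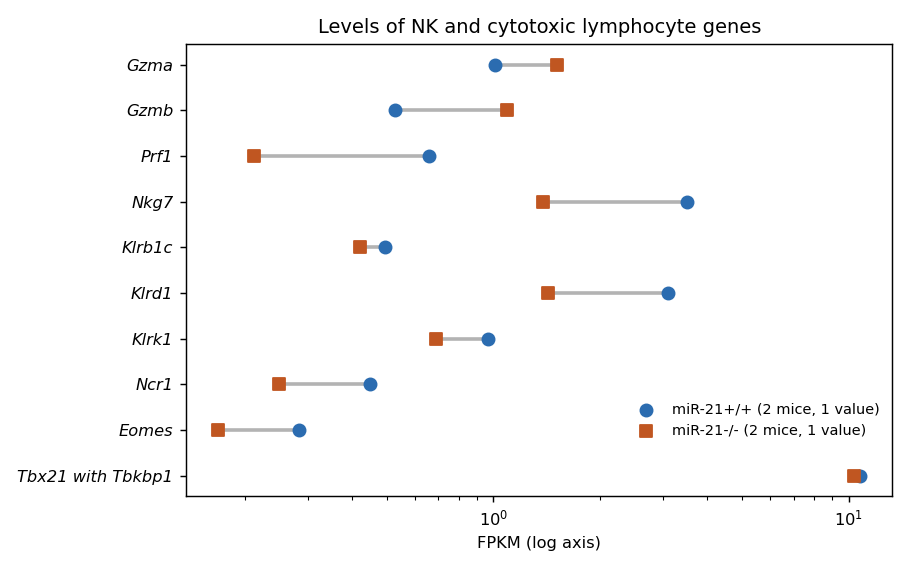
FPKM of each gene (log axis) in *miR-21*+/+ (circles) and *miR-21*-/- glands (squares), each point being the authors' single value for 2 mice, joined by a line. *Prf1*, from 0.660 to 0.212 FPKM, shows the widest gap to lower values, and *Gzma* and *Gzmb* are the genes whose square lies to the right; *Gzma* changes sign with equal sums over all loci.

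The order of the genes differed between the genotypes. In *miR-21*+/+ glands *Nkg7* was highest at 3.50 FPKM, followed by *Klrd1* at 3.10, *Gzma* at 1.01 and *Klrk1* at 0.963 FPKM. In *miR-21*-/- glands *Gzma* was highest at 1.51 FPKM, followed by *Klrd1* at 1.43, *Nkg7* at 1.38 and *Gzmb* at 1.09 FPKM. *Eomes* was lowest in both. Which neighbours in this order differ by more than the spread between mice cannot be told from the table.

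The granule proteins split in both directions. *Prf1* encodes perforin, the pore-forming protein of the granules. It lies on chromosome 10 from 60760584 to 60767011 (mm9, plus strand) and stood at 0.660 FPKM in *miR-21*+/+ and 0.212 FPKM in *miR-21*-/- glands. This was 3.11-fold lower in *miR-21*-/- glands (log2 ratio −1.64), the lowest ratio among the members, and 1.66% of the 16170 loci had a lower one. Only 10.4% of these loci had a lower mean level than *Prf1*, at 0.436 FPKM. The share is thus taken mostly over more abundant loci, whose ratios scatter less.

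*Nkg7*, a membrane protein of the granules that is needed for their release, lies on chromosome 7 from 50692508 to 50693616 (plus strand). It stood at 3.50 FPKM in *miR-21*+/+ and 1.38 FPKM in *miR-21*-/- glands, 2.53-fold lower (log2 ratio −1.34).

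The granzymes went the other way on the FPKM scale. *Gzmb*, granzyme B, which cleaves caspases and their substrates, lies on chromosome 14 from 56877695 to 56881097 (minus strand). It stood at 0.529 FPKM in *miR-21*+/+ and 1.09 FPKM in *miR-21*-/- glands, 2.07-fold higher (log2 ratio 1.05). The ratio was 0.42 with equal sums over all loci and 0.93 with a pseudocount of 0.1, both under 2-fold.

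*Gzma*, granzyme A, a protease with a preference for cutting after basic residues, lies on chromosome 13 from 113884035 to 113891189 (minus strand). It stood at 1.01 FPKM in *miR-21*+/+ and 1.51 FPKM in *miR-21*-/- glands, a log2 ratio of 0.58 that was −0.05 with equal sums over all loci. Because FPKM is per length, genes of a single genotype can be set against each other, and such ratios do not depend on how the columns are scaled. *Gzmb* amounted to 0.802 times *Prf1* in *miR-21*+/+ and 5.16 times in *miR-21*-/- glands. For *Gzma* these values were 1.53 and 7.11. *Gzmb* to *Gzma* varied less, from 0.525 to 0.726. *Prf1* has the lowest and *Gzmb* the highest log2 ratio of the members, so a wide difference followed from the choice of this pair. Such quotients are also unsteady at low levels, and *Prf1* stood at only 0.212 FPKM in *miR-21*-/- glands. With a pseudocount of 1 the log2 ratios of *Gzmb* and *Prf1* were 0.45 and −0.45.

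*Gzmb* sits in a cluster of granzyme and mast cell protease genes on chromosome 14, between 56560288 and 56881097. Among its 17 rows, 7 had a mean of at least 0.1 FPKM and were above 0 in both genotypes. *Gzmb* was the only one at least 2-fold higher and its neighbour *Gzmc*, at 0.239 and 0.117 FPKM, the only one at least 2-fold lower. *Mcpt4*, a mast cell chymase, stood at 32.7 and 37.1 FPKM. Gene copies in this cluster are alike and can share reads, so values of single genes there are uncertain.

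The surface receptors were all lower in *miR-21*-/- glands on the FPKM scale and under each scaling of the columns, though relative to *Ptprc* only *Klrd1* was. *Klrd1* encodes CD94, which pairs with NKG2 proteins to read the non-classical MHC molecule Qa-1. It lies on chromosome 6 from 129541829 to 129548793 (plus strand) and stood at 3.10 FPKM in *miR-21*+/+ and 1.43 FPKM in *miR-21*-/- glands, 2.17-fold lower (log2 ratio −1.12).

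*Ncr1* encodes NKp46, an activating receptor found on NK cells and related innate lymphoid cells and on few others. It lies on chromosome 7 from 4289326 to 4296766 (plus strand) and stood at 0.448 and 0.249 FPKM, a log2 ratio of −0.85. *Klrk1* encodes NKG2D, the activating receptor for stress-induced ligands, carried by NK cells and by activated CD8 T cells. It lies on chromosome 6 from 129560339 to 129573859 (minus strand), and its ratio was smaller, −0.48.

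*Klrb1c* encodes NK1.1, the antigen by which NK cells are recognized in some mouse strains. It lies on chromosome 6 from 128728503 to 128738659 (minus strand) and differed least of the receptors, with 0.495 FPKM in *miR-21*+/+ and 0.422 FPKM in *miR-21*-/- glands (log2 ratio −0.23). This receptor family varies between mouse strains, the mice were of mixed background, and the reads were aligned to a single reference genome. What this did to the receptor values was not tested.

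*Eomes*, on chromosome 9 from 118387307 to 118395250 (plus strand), stood at 0.284 FPKM in *miR-21*+/+ and 0.168 FPKM in *miR-21*-/- glands (log2 ratio −0.76). The row that holds *Tbx21*, the gene of T-bet, spans chromosome 11 from 96959321 to 97012730. It stood at 10.8 and 10.4 FPKM (log2 ratio −0.06). GENCODE places *Tbx21* from 96959385 to 96976645 and *Tbkbp1*, which encodes an adaptor of the kinase TBK1, from 96997485 to 97012809. The level of the row was above that of every other member in both genotypes, and the part of *Tbx21* in it cannot be told apart.

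**Figure D2:**
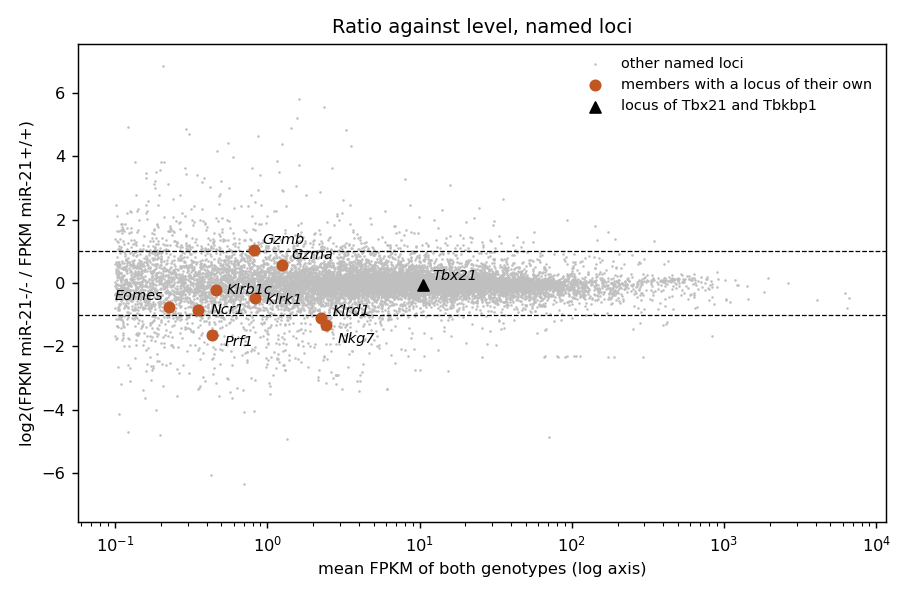
Log2 ratio of *miR-21*-/- over *miR-21*+/+ FPKM against the mean FPKM of both (log axis) for 16170 named loci (grey), with the 9 genes of their own locus (orange) and the *Tbx21* row (triangle). Dashed lines mark 2-fold; *Prf1*, *Nkg7* and *Klrd1* lie under the lower line and *Gzmb* at 1.05 just over the upper one, at levels where many grey points also pass the lines.

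For the 2 genes with the lowest ratios, *Prf1* and *Nkg7*, and the gene with the highest, *Gzmb*, the RefSeq promoter is shown (GRCm38.p6, 250 bases before the gene start to 50 bases after it, 5′ to 3′). Capitals mark matches on either strand to AGGTGTGA, bound by T-box factors, TGTGGT, bound by Runx factors, and TTCNNNGAA, the GAS motif of STAT factors. *Prf1* lies at chr10:61297586-61297885 on the plus strand, *Nkg7* at chr7:43436888-43437187 on the plus strand and *Gzmb* at chr14:56262285-56262584 on the minus strand.
Prf1: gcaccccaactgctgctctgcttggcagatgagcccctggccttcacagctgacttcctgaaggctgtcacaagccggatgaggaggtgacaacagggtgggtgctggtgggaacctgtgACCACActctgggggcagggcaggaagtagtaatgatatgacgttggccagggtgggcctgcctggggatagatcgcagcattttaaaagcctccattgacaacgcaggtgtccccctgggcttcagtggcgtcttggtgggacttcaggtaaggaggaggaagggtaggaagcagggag
Nkg7: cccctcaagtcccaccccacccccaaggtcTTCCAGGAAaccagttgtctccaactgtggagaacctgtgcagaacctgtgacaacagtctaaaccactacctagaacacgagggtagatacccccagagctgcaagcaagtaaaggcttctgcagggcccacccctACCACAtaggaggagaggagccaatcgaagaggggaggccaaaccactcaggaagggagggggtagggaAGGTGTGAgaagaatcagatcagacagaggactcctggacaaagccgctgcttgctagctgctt
Gzmb: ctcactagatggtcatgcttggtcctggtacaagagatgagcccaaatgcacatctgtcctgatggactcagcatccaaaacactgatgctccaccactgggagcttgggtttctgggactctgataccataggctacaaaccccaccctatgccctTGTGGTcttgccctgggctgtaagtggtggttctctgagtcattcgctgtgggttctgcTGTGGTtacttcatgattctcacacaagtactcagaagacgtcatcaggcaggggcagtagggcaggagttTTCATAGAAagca
A promoter was found for 9 of the 10 genes, and that of *Klrd1* was not among them. A Runx match lay in 7 of the 9, against 16.9% of 27025 promoters of the same length. *Eomes* and *Tbx21* had none, while the genes with a match included both granzymes, *Prf1*, *Nkg7*, *Klrb1c*, *Klrk1* and *Ncr1*. The T-box match lay in 1 of the 9, *Nkg7*, 14 bases before the gene start, against 1.27% of promoters, and a GAS match in 2 of the 9, *Nkg7* and *Gzmb*, against 8.47%. None of the motifs overlapped another in the printed sequences. These matches are letters in a window, and no binding was measured.

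The rest of the NK gene complex was read with the same table. Between 128559245 and 130336892 on chromosome 6, 21 rows carried only *Klr* names, and 17 of them had a mean of at least 0.1 FPKM. Of the 17, which include *Klrb1c*, *Klrd1* and *Klrk1*, 15 were lower and 2 higher in *miR-21*-/- glands on the FPKM scale, with a median log2 ratio of −0.48 and a range from −1.12 to 0.40, where 52.3% of loci at the members' level were lower. *Klrd1* was the only one at least 2-fold lower. Several *Klra* genes are near-identical and share rows, so single values there are uncertain.

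Other receptors and adaptors of NK cells gave 27 loci above the minimum out of a list of 32 genes. Of these 3 were at least 2-fold lower, none was at least 2-fold higher, 23 ratios were below 0, and the median was −0.47. At the members' level 7.82% of loci were at least 2-fold lower and 52.3% were below 0. Part of this list lies above that level, and over all 16170 loci 3.65% were at least 2-fold lower. The 3 of 27 were not tested against either share. *Cd247*, the CD3 zeta chain that signals for T cell and NK receptors, stood at 4.71 FPKM in *miR-21*+/+ and 1.93 FPKM in *miR-21*-/- glands. *Sh2d1a*, the adaptor SAP of T and NK cells, stood at 0.862 and 0.222 FPKM, and the inhibitory receptor *Klrg1* at 0.300 and 0.148 FPKM. The most abundant of the list are also made by myeloid cells. *Tyrobp*, the adaptor DAP12, stood at 59.8 and 58.6 FPKM, and *Fcer1g*, the Fc receptor gamma chain, at 53.1 and 57.7 FPKM.

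Other granule, release and death-ligand genes gave 13 loci above the minimum out of 21 genes, with 2 at least 2-fold lower, none at least 2-fold higher and a median of −0.19. At least 2-fold lower were 7.82% of loci at the members' level and 3.65% of the 16170 loci. Part of this list too lies above the members' level. *Ctsw*, a cathepsin of cytotoxic lymphocytes, stood at 1.502 FPKM in *miR-21*+/+ and 0.580 FPKM in *miR-21*-/- glands (log2 ratio −1.37), and *Gzmc* was the other. *Lamp1*, a lysosomal membrane protein of most cells that also lines the granules, stood at 232 and 217 FPKM. *Ctsc*, the protease that activates granzymes and is widely expressed, stood at 49.4 and 43.6 FPKM. The log2 ratios of these abundant genes were −0.10 and −0.18.

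T cell, B cell and lymph node markers had lower median ratios than the NK genes, a difference that was not tested. The members, called NK genes for short, include granule and T-box genes that CD8 T cells share. The comparison is therefore not one of NK cells with T cells. Of 12 T cell markers 11 were at least 2-fold lower and the median log2 ratio was −2.24. For this list and those below, the shares over the 16170 loci were 3.65% at least 2-fold lower and 3.18% at least 2-fold higher. *Cd3e*, a chain of the T cell receptor complex, stood at 7.26 FPKM in *miR-21*+/+ and 1.22 FPKM in *miR-21*-/- glands. *Cd3g* stood at 7.70 and 1.65, the kinase *Lck* at 8.41 and 2.13 and *Cd2*, which NK cells also carry, at 6.75 and 2.00 FPKM. The exception was *Thy1*, which fibroblasts and nerves also express, at 55.7 and 53.6 FPKM.

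All 9 B cell loci with rows of their own were at least 2-fold lower, with a median of −2.996. *Ms4a1* (CD20) stood at 5.61 and 0.549 FPKM, *Fcer2a* (CD23) at 4.77 and 0.597 and *Cd79b*, of the B cell receptor, at 12.3 and 2.88 FPKM. No B cell marker on the list was at 0 in either genotype. Their summed level was 41.7 FPKM in *miR-21*+/+ and 6.21 FPKM in *miR-21*-/- glands.

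Of the lymph node venule and stroma list, 6 loci were above the minimum and above 0 in both genotypes, 5 of them at least 2-fold lower and 1 at least 2-fold higher. *Glycam1*, the venule mucin that binds L-selectin and is also a milk protein, stood at 136 and 4.63 FPKM. *Ltb*, lymphotoxin beta, stood at 13.9 and 2.83, *Cxcl13*, which attracts B cells, at 9.47 and 2.53 and *Ccl19*, which attracts T cells, at 5.92 and 1.33 FPKM. *Madcam1*, a venule adhesion molecule, was higher, at 0.576 and 1.56 FPKM. *Chst4*, a sulfotransferase of the same venules that is named after its values were seen, stood at 0.571 FPKM in *miR-21*+/+ and was listed at 0 in *miR-21*-/- glands. The summed level of the 6 loci was 167 and 13.1 FPKM, most of it *Glycam1*, and that of the other 5 was 30.5 and 8.46 FPKM. The part of lymph node tissue in the values of the NK genes was not tested, and in whole gland fewer cells of a type and less RNA per cell cannot be told apart.

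**Figure D3:**
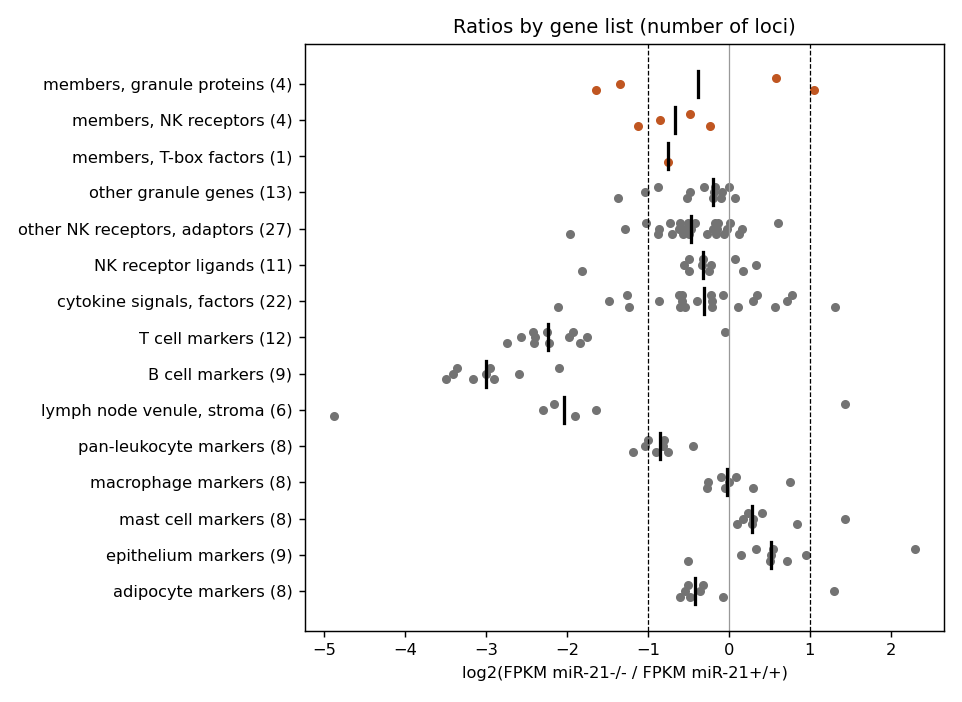
Log2 ratio of *miR-21*-/- over *miR-21*+/+ FPKM for each locus of 15 gene lists, with the number of loci used in brackets, a black bar at the median and dashed lines at 2-fold; members are orange. The medians of T and B cell markers lie at −2.24 and −2.996, those of the member groups between −0.76 and −0.38, and those of mast cell and epithelium markers at 0.29 and 0.52, which become −0.34 and −0.11 with equal sums over all loci. On that scale the median of all loci is −0.66.

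The NK genes were also set against each of the 12 T cell markers within a genotype. Against 11 of them, all but *Thy1*, the ratio of each of the 9 genes to the marker was higher in *miR-21*-/- glands. Against *Thy1* it was lower for 7 and higher for 2. The log2 ratios of the 11 markers between genotypes ran from −2.74 to −1.76. All lay below the −1.64 of *Prf1*, the lowest of the 9 genes. Only 1.66% of the 16170 loci had a lower ratio than *Prf1*, so most other loci would be higher against these markers too. The result therefore follows from the marker values and is not particular to NK genes. The sizes of the differences depended on the marker. The ratio of *Prf1* differed by 0.93 on the log2 scale against *Cd3e* and by 0.12 against *Cd2*, and that of *Klrd1* by 1.45 and 0.64. In values, *Ncr1* amounted to 0.0617 times *Cd3e* in *miR-21*+/+ and 0.204 times in *miR-21*-/- glands. *Nkg7* to *Cd3e* was 0.482 and 1.13, *Klrd1* to *Cd3e* 0.427 and 1.17, and *Prf1* to *Cd3e* 0.0909 and 0.174. None of these differences was tested. *Cd8a*, the coreceptor of cytotoxic T cells, named after its values were seen, stood at 4.14 and 0.783 FPKM, so that *Prf1* to *Cd8a* was 0.159 and 0.271. Within the NK genes, *Prf1* to *Ncr1* was 1.47 and 0.852, and *Klrb1c* to *Ncr1* 1.104 and 1.70.

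The median ratio of the pan-leukocyte markers lay between those of the T and B cell markers and that of all loci. It was below that of the NK genes. All 8 pan-leukocyte markers had ratios below 0, with a median of −0.85, and 2 were at least 2-fold lower, where 3.65% of the 16170 loci were. *Ptprc* (CD45), present on every leukocyte, stood at 21.6 FPKM in *miR-21*+/+ and 10.5 FPKM in *miR-21*-/- glands, *Cd37* at 21.5 and 9.48, *Cd52* at 48.5 and 24.3 and *Laptm5* at 71.9 and 52.7 FPKM. Relative to *Ptprc*, where the median of all loci is 1.01, the log2 ratios were −0.60 for *Prf1*, −0.30 for *Nkg7*, −0.08 for *Klrd1*, 0.19 for *Ncr1*, 0.28 for *Eomes*, 0.56 for *Klrk1* and 0.81 for *Klrb1c*. The granzymes stood at 1.62 for *Gzma* and 2.09 for *Gzmb* on this scale.

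None of 8 macrophage loci passed 2-fold, and their median log2 ratio was −0.019, or −0.65 with equal sums over all loci, where the median of all loci is −0.66. *Lyz2*, lysozyme, stood at 381 and 319 FPKM and *C1qa*, of complement, at 147 and 137 FPKM. The widest ratio of the list was that of *Cd14*, a coreceptor for bacterial lipopolysaccharide named after its values were seen, at 25.4 and 42.7 FPKM. Mast cells also make granule proteases and, in the mouse, can make granzyme B. All 8 mast cell markers had ratios above 0 on the FPKM scale, with a median of 0.29 that was −0.34 with equal sums over all loci. Their summed level was 133 FPKM in *miR-21*+/+ and 167 FPKM in *miR-21*-/- glands. The tryptase *Tpsb2* stood at 28.3 and 34.5 FPKM, and *Tpsab1*, at 0.649 and 1.75 FPKM, was the only one at least 2-fold higher. The part of mast cells in the values of *Gzmb* was not tested.

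Markers of the gland itself checked the tissue. All were present in both genotypes. Of 9 epithelium loci 1 was at least 2-fold higher, the progesterone receptor *Pgr* at 4.71 and 23.3 FPKM, and the median was 0.52, or −0.11 with equal sums over all loci. The keratins *Krt18* and *Krt19* stood at 148 and 216 and at 223 and 247 FPKM. Among 8 adipocyte markers the median was −0.42, *Fabp4* stood at 7677 and 5523 FPKM and *Cfd* at 6946 and 5547 FPKM, and *Lep* (leptin), at 27.7 and 67.9 FPKM, was the only one at least 2-fold higher. The part of epithelium and fat content in the NK values was not tested.

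**Figure D4:**
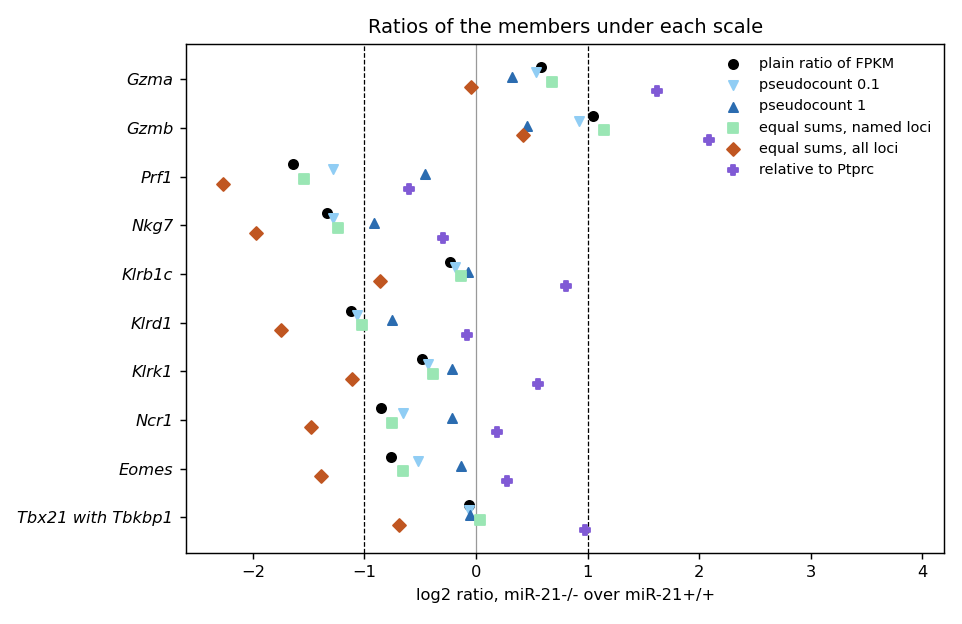
Log2 ratio of each gene under 6 scales: the plain FPKM ratio, pseudocounts of 0.1 and 1, equal sums over named or over all loci, and relative to *Ptprc*; dashed lines mark 2-fold. Equal sums over all loci move every gene by −0.63 and take *Gzma* to −0.05, while relative to *Ptprc* every gene moves by 1.04 and *Prf1*, *Nkg7* and *Klrd1* alone stay below 0.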

How the data were processed

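RNA-Seq of mammary gland from 2 *miR-21*+/+ and 2 *miR-21*-/- mice was analysed. The authors aligned single-end reads to mm9 with TopHat, and the deposited FPKM values, 1 per genotype with its 2 mice combined, come from the Cufflinks programs. Program versions, gene annotation and scaling options are not given in the sources used here. The table's columns of test status, fold changes, test statistics, p-values, q-values and calls were not used.

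Log2 ratios were taken from the FPKM values without a pseudocount. Where a name had several rows the highest mean FPKM was kept. Loci with a name, a mean of at least 0.1 FPKM and values above 0 in both genotypes were the background (16170 of 22483 named and 30506 loci). A change was counted at 2-fold. Rows that merge a list's gene with a gene outside the list were left out of list medians. Starts in the table count from 0 and are given from 1. Low FPKM values showed no steps of whole reads: among 1316 loci under 0.05 FPKM, 1.06% shared the most frequent ratio.

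The members and lists were chosen with earlier results of these data known. Named genes were the members and, from each other list, the 2 of highest mean FPKM and up to 4 per direction past 2-fold, and others are marked in the text. A gene that this rule names is not reported here. The 3′ UTR taken was the longest annotated for each gene. Alternatives were 2 pseudocounts, 3 scalings, other minimums and folds, and, added after seeing the data, *Ptprc* as reference and leaving out the *Tbx21* row. The counting functions were tested on simulated data. Python 3.11.15, numpy 2.4.6, pandas 2.3.3 and matplotlib 3.10.9 were used.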

Additional observations from a re-analysis of the deposited data

How the results depend on the processing

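No paired analysis was possible because both mice of a genotype are merged into 1 value, and no mouse could be left out for the same reason. Depth is unknown, so the error of values under 1 FPKM, where most of these genes lie, is unknown too.
The 3 genes at least 2-fold lower became 0 with a pseudocount of 1, 6 with equal sums over all loci, 0 relative to *Ptprc*, 5 at 1.5-fold, 1 at 3-fold and 0 with a minimum mean of 5 FPKM. With minimum means of 0.5 and 1 FPKM, which *Prf1* does not reach, 2 remained. The 1 gene at least 2-fold higher became 0 with either pseudocount, with equal sums over all loci, at 3-fold and with minimums of 1 and 5 FPKM, and 2 relative to *Ptprc*. *Gzmb*, with a mean of 0.812 FPKM, does not reach the minimum of 1. The median of −0.62 became −0.47 and −0.18 with pseudocounts of 0.1 and 1, −1.25 with equal sums over all loci, 0.42 relative to *Ptprc*, −0.27 and −0.061 with minimums of 0.5 and 5 FPKM, and −0.76 without the *Tbx21* row. At the minimum of 5 FPKM the *Tbx21* row alone was left, so −0.061 is its own ratio. The counts of 0 at that minimum followed from the filter. Equal sums over named loci, equal medians, and no minimum moved the median by at most 0.1 and left both counts within 1.5 times.
Equal sums over all loci shifted every ratio by −0.63 and the median of all loci from −0.03 to −0.66. A pseudocount pulls low values toward 0 by construction. Of 60 ratios of single genes under the alternatives, 33 moved by more than 0.1 on the log2 scale, and none of those at 2-fold or more changed sign. Equal sums over all loci and *Ptprc* as reference move every gene by construction. Under 2-fold, *Gzma* changed sign with equal sums over all loci and the *Tbx21* row with equal sums over named loci. *Klrb1c*, *Klrk1*, *Ncr1*, *Eomes* and the *Tbx21* row did so relative to *Ptprc*.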

Other observations

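Ligands of the NK receptors were read from the same table, for the tissue that NK cells would meet. Of 11 loci above the minimum 1 was at least 2-fold lower in *miR-21*-/- glands and none at least 2-fold higher, with a median log2 ratio of −0.32. At the level of the NK genes 7.82% of loci were at least 2-fold lower, and over all 16170 loci 3.65%. The list reaches far above the level of the NK genes, and 1 of 11 is a single gene. *Clec2i*, a C-type lectin that binds receptors of the *Klrb1* family, stood at 5.02 FPKM in *miR-21*+/+ and 1.42 FPKM in *miR-21*-/- glands (log2 ratio −1.82). It has 2 rows, of which the more abundant is given. *Clec2d*, the ligand of an inhibitory receptor of the same family, stood at 71.9 and 75.9 FPKM. *B2m*, the light chain of the MHC class I molecules that inhibitory receptors read, stood at 1673 and 1189 FPKM (log2 ratio −0.49).

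Among cytokine signals, transcription factors and trafficking genes of NK and CD8 T cells, 22 loci were above the minimum, 4 of them at least 2-fold lower and 1 at least 2-fold higher, with a median of −0.30. Of loci at the level of the NK genes 7.82% were at least 2-fold lower and 6.92% at least 2-fold higher. Over the 16170 loci these shares were 3.65% and 3.18%, and part of this list lies above the level of the NK genes. *Ccl5*, a chemokine stored by cytotoxic and memory T cells, stood at 21.5 FPKM in *miR-21*+/+ and 4.97 FPKM in *miR-21*-/- glands, a log2 ratio of −2.11. *Il2rb*, the receptor chain for interleukin-15 and interleukin-2, stood at 3.66 and 1.55 FPKM, *Stat4*, which signals for interleukin-12, at 1.42 and 0.510 FPKM, and *Cxcr6*, a homing receptor of tissue lymphocytes, at 1.35 and 0.562 FPKM. *Il15ra*, which presents interleukin-15 to NK cells, stood at 33.0 and 21.6 FPKM. The chemokine *Ccl3* was at least 2-fold higher but near the floor of the table, at 0.0790 and 0.196 FPKM. *Stat5a*, abundant in mammary epithelium, stood at 22.8 and 39.0 FPKM.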
